A study of Mus musculus with 3 samples.

Results

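The genes described here are 45 genes of DNA replication and nucleotide supply, read from 4T1 mouse mammary carcinoma cells under 3 culture conditions. They were taken as a list by function, and a probe set was included where the array's annotation gave a listed gene as its only symbol. This gave 100 probe sets for 45 of 45 listed genes, out of 45037 probe sets and 18193 named genes in all. The study set 4T1 cells in regular medium beside 4T1 cells given medium conditioned by MSCs (MSC-CM) and 4T1 cells isolated after contact co-culture with MSCs, which the labels do not spell out and which commonly stands for mesenchymal stem cells. All 4T1 cells were grown in RPMI-1640 with 10% FBS. Exposure to conditioned medium or to MSCs lasted 1 week, and the labels give no time for regular medium. Each condition is represented by 1 Affymetrix Mouse Genome 430 2.0 array, so a difference is between a pair of arrays, without replicates, and no test was made. Only the co-culture cells went through isolation from a mixed culture, so contact, isolation and RNA carried over from MSCs cannot be told apart. Neither the source of the MSCs nor the isolation method is stated in the labels.

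Before a cell copies its DNA, the origin recognition complex marks origins, and Cdc6 and Cdt1 load the ring-shaped Mcm2 to Mcm7 helicase onto them while geminin prevents reloading. In S phase the kinase Cdc7 with its partner Dbf4, together with Mcm10, Cdc45 and the GINS complex, turns the loaded ring into a moving helicase. Polymerase alpha with primase starts the strands, polymerases delta and epsilon extend them on the PCNA clamp, and ribonucleotide reductase, thymidine kinase and related enzymes supply the deoxynucleotides. Many of these genes are transcribed late in G1 and in S phase under E2F factors, and their summed level is widely read as a sign of proliferation in cancer cells.

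Values are MAS5 signals, a linear brightness for each probe set. Trimmed mean signals were nearly equal on the 3 arrays, and median signals lay between 71.6 and 79.8. A gene was called measured in a comparison when its signal reached 149.3, the pooled 60th percentile, on at least 1 of the 2 arrays. Signals below 42.4, the pooled 40th percentile, were set to that floor. Each gene was represented by its probe set of highest mean signal, and all 45 members exceeded 149.3 on all 3 arrays. Of the epithelial markers fixed for the labelled cell type 15 of 15 were measured, with summed signals of 80412 (regular), 82844 (conditioned) and 105356 (co-culture). In co-culture 14 of the 15 were higher than in regular medium, and 5 of them by at least 1.5-fold. Of the 9393 genes measured in this comparison, 5264 were higher, and 1586 by that much. The luminal keratin genes Krt8 and Krt18 gave 15049 and 18723 in regular medium and 16476 and 21097 in co-culture. The basal keratin gene Krt14 was lower, with 439.1 against 1217.5 in regular medium. Among the MSC and fibroblast markers 8 of 19 were measured. Summed signals of all 19 were 7275 (regular), 7550 (conditioned) and 11502 (co-culture). Of the 8 measured, 7 were higher in co-culture than in regular medium, beside the same 5264 of 9393 measured genes. Among these 7, Postn gave 765.6 in regular medium and 1802.6 in co-culture, Bgn 12.3 and 181.5, Pdgfra 101.3 and 187.5, and Col1a2 101.8 and 188.2. Vcam1 gave 2660.5 and 3867.9, Nt5e 2156.7 and 3185.9, and Eng 937.8 and 1476.5. These last were the brightest markers of the list already in regular medium. Col6a2 was lower in co-culture, with 191.1 and 126.9. Of the same 19 markers, 7 lay at or below the floor in co-culture, including Col1a1 at 41.9, Dcn at 35.2, Mgp at 38.9 and Thy1 at 6.7. The other marker lists were mostly unmeasured, with 3 of 9 macrophage, 3 of 8 smooth muscle and 1 of 6 endothelial markers measured. Their summed co-culture signals were 879.1, 624.8 and 366.8, beside 838.8, 546.1 and 377.5 in regular medium. The smooth muscle sum joins opposite differences, since Acta2 gave 278.3 in co-culture and 42.4 in regular medium, and Cspg4 36.0 and 188.9. Whether carried-over RNA of MSCs or other stromal cells had a part in the results below was not tested.

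Replication genes had lower signals in co-culture than in regular medium, nearly throughout the list. Of the 45 members, 42 had a lower co-culture signal, against 44.0% of the 9393 genes measured in this comparison, and 40 to 45 had one under other scalings of the arrays. A difference of at least 1.5-fold downward was seen for 22 of 45 members, against 9.86% of all measured genes, and of at least 2-fold for 7 of 45, against 2.76%. Under other scalings the count past 2-fold ran from 4 to 12. No member was at least 2-fold higher, which 5.81% of measured genes were. The median log2 difference was -0.58 over the members (quartiles -0.88 and -0.26) and 0.07 over all measured genes. The 7 genes past 2-fold were Tk1, Lig1, Rfc3, Cdc45, Gmnn, Pole2 and Rrm2, which come from 6 of the 7 roles described below. Rrm2, at 2.003-fold, lay just inside that limit and Cdc6, at 1.996-fold, just outside it. Pold1, at 1.5003-fold, and Prim2, at 1.49-fold, lay on either side of the 1.5-fold limit. The 3 members that were not lower were Rfc2, Pola1 and Rfc1, with log2 differences of 0.11, 0.06 and 0.01, all of which are below 0 when arrays are centred on the median of measured genes. In bulk RNA, fewer cells in S phase and less of each transcript per cell cannot be told apart.

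**Figure D1:**
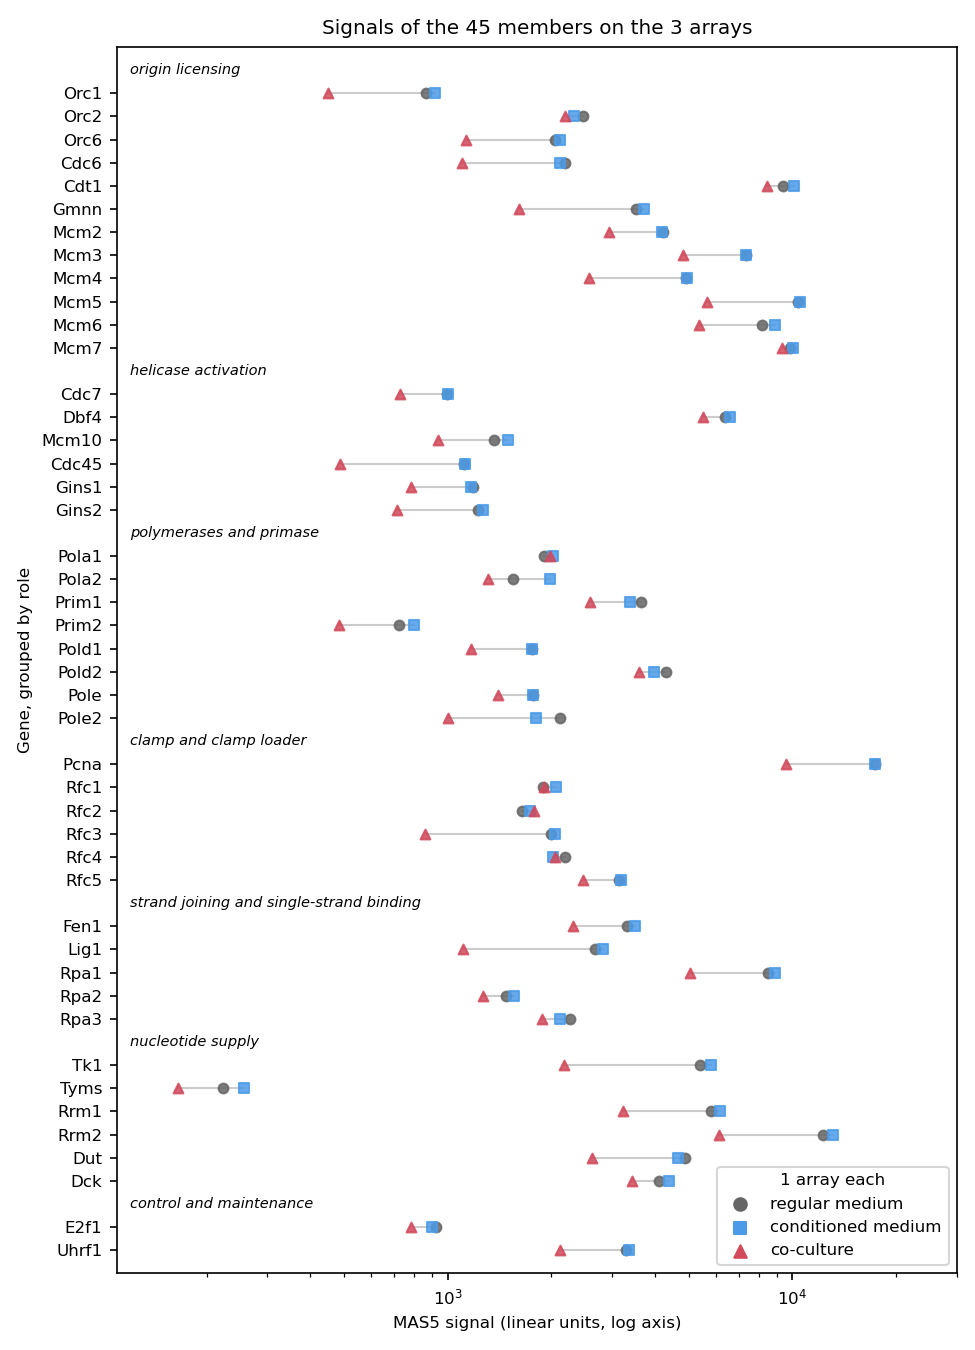
Signals of the 45 members on the 3 arrays, on a log axis and grouped by role, with 1 point for each array and a grey line spanning the 3. Regular and conditioned medium lie close together for most genes, and the co-culture point is the lowest of the 3 for 41 of 45 genes.

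Genes within the members' range of signal were counted as well. The members' mean signals over the 3 arrays ran from 215.1 to 14714. Of the 9393 measured genes, 8277 had mean signals in the same range. Of these 8277, 9.35% were at least 1.5-fold lower and 2.24% at least 2-fold lower in co-culture, with a median log2 difference of 0.07. Among the members the shares were 48.9% and 15.6%. Since the range takes in most measured genes, its shares had to lie near those of all measured genes. It does not match genes to members by brightness.

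**Figure D2:**
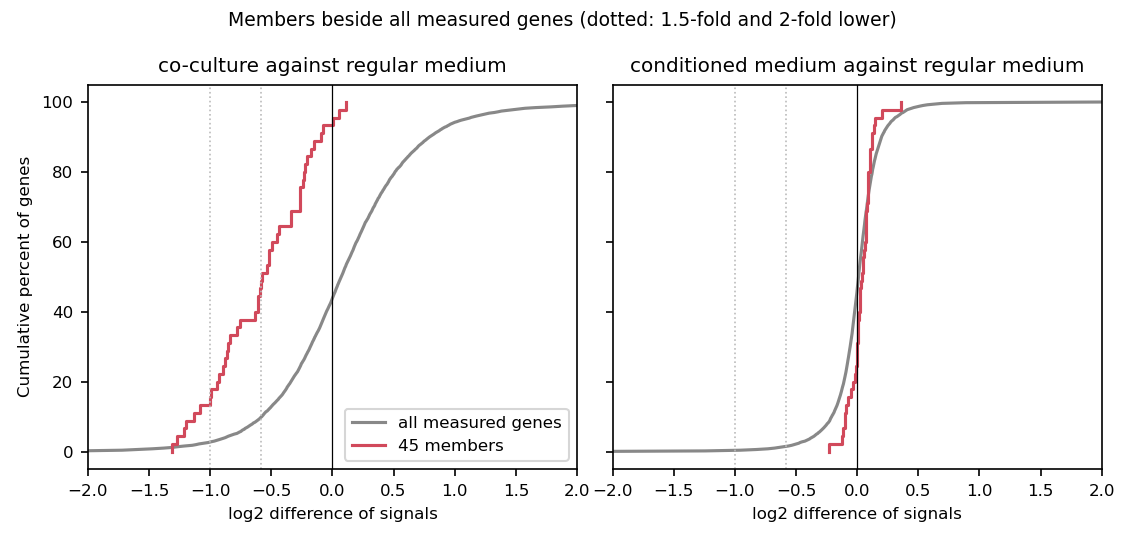
Cumulative percent of genes by log2 difference of signals, for co-culture (left) and conditioned medium (right) against regular medium, with the 45 members in red and all measured genes in grey; dotted lines mark 1.5-fold and 2-fold lower. The members' curve lies to the left of all genes in co-culture, with medians of -0.58 and 0.07, and close to it in conditioned medium, with medians of 0.04 and 0.01.

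Promoter sequence was examined because the members differed together and many are known E2F targets. RefSeq promoters of mouse build GRCm38.p6, each running from 250 bases before to 50 after a transcription start, were matched by symbol for 38 of 45 members. An E2F-type word was defined as any of the 4 8-letter words TTTCCCGC, TTTCGCGC, TTTGCCGC and TTTGGCGC on either strand, with overlapping matches allowed. At least 1 such word was present for 13 of 38 members, or 34.2%, against 2.60% of the 27025 genes in the table and 2.26% of its 32851 promoters. The 13 genes were Orc1, Cdc6, Cdt1, Mcm3, Mcm5, Mcm6, Mcm7, Pola1, Pold1, Pole2, Rfc3, Lig1 and Uhrf1. In 8 of them a word lay wholly before the start, and these stretches are printed to show the words beside genes that differed by 1.5-fold or more and genes near 0. Each runs 5′ to 3′ on the gene's strand, and capitals mark the E2F-type words, read on either strand.
Mcm6, chr1:128359725-128359835, minus strand, 3 words of which 2 overlap: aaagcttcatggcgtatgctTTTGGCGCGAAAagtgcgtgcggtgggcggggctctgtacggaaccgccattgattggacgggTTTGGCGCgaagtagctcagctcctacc
Mcm5, chr8:75109336-75109387, plus strand, 2 overlapping words: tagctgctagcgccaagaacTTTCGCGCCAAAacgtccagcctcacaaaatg
Mcm7, chr5:138172021-138172068, minus strand: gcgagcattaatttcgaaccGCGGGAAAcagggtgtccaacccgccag
Orc1, chr4:108579407-108579453, plus strand: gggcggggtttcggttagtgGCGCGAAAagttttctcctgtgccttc
Cdc6, chr11:98907993-98908040, plus strand: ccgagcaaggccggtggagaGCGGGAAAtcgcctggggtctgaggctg
Rfc3, chr5:151651209-151651238, minus strand: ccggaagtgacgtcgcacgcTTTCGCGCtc
Pola1, chrX:93632266-93632313, minus strand: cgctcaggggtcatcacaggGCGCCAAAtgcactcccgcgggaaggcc
Uhrf1, chr17:56304108-56304155, plus strand: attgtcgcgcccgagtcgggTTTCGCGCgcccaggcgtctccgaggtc

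Of the genes printed, Rfc3 was 2.32-fold lower in co-culture than in regular medium, Cdc6 2.00-fold and Orc1 1.92-fold, whereas Mcm7 and Pola1 had log2 differences of -0.07 and 0.06. Words of the same kind thus stood in promoters of genes that differed and of genes near 0. The 13 members with a word had a median log2 difference of -0.64, and 10 of them were at least 1.5-fold lower. The 25 members with a promoter in the table and no word had a median of -0.45, and 8 of them were at least 1.5-fold lower. Tk1, Rrm2 and Cdc45 belonged to the latter, so that of the 7 genes past 2-fold 3 had a word, 3 had none in this window, and Gmnn had no promoter in the table. Roles differed, with a word for 7 of 10 origin licensing, 3 of 6 polymerase and primase and 1 of 2 control genes. The clamp and the strand joining roles each had 1 of 5. Helicase activation had 0 of 4, and nucleotide supply, the role of lowest median, 0 of 6. A second word, CCAAT, the core of the NF-Y box, was found for 22 of 38 members, or 57.9%, against 41.1% of all genes. The CHR word TTTGAA, known from genes of mitosis, was found for 7 of 38 members, or 18.4%, against 20.2% of all genes. Among 17 mitosis genes with a promoter, 12 held the CHR word and 1 held an E2F-type word. A match is a description of the sequence and says nothing of binding in these cells.

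**Figure D3:**
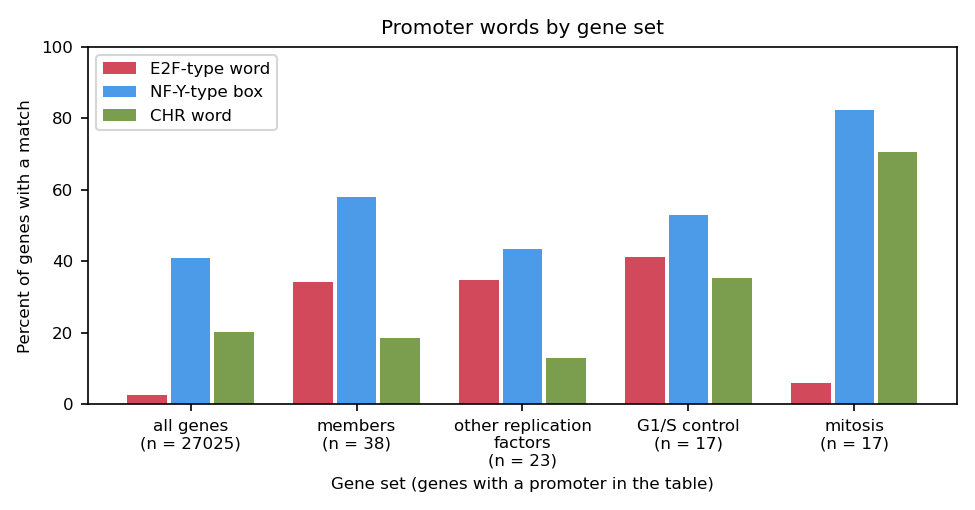
Percent of genes with at least 1 promoter match to the E2F-type words (red), the NF-Y-type box (blue) and the CHR word (green), for all genes in the table, the members and 3 related lists. The E2F-type words were found for 34.2% of the members and 2.60% of all genes, and the CHR word for 70.6% of the mitosis genes and 18.4% of the members.

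Origin licensing was the largest role, with 12 genes. Signals of all 12 were lower in co-culture than in regular medium, with Mcm7 so close to 0 that quantile normalization or centring on reference genes turned its sign. At least 1.5-fold lower were 8 of them, and the role's median log2 difference was -0.74. Geminin (Gmnn), the inhibitor of licensing, gave signals of 3526 (regular medium), 3706 (conditioned medium) and 1607 (co-culture) and was 2.19-fold lower in co-culture. Signals of the 3 arrays are given in this order throughout. Its target Cdt1, the loader of the MCM ring, gave 9364, 10091 and 8447 in the same order, a log2 difference of -0.15. The inhibitor was thus lower by more than its target, with 1.98-fold between their ratios by these probe sets. A second bright probe set of Cdt1 had a difference of -0.36, with which the gap is smaller. Cdc6, the ATPase that loads the ring together with Cdt1, gave 2197, 2125 and 1100.

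The subunits of the origin recognition complex differed among themselves. Orc1, its large ATPase subunit, gave 866, 922 and 451 in regular medium, conditioned medium and co-culture, 1.92-fold lower in co-culture, although a second probe set of the gene had a difference of -0.20. Orc6, the smallest subunit, gave 2049, 2113 and 1130, 1.81-fold lower. Orc2, a core subunit, gave 2477, 2324 and 2188, and its 3 probe sets had differences of -0.29, -0.18 and 0.34, so that no direction can be given for it.

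Within the MCM ring, 5 of the 6 subunits had lower signals in co-culture, while Mcm7 lay near 0, at -0.07 as deposited and 0.06 with arrays centred on reference genes. Mcm4 was lowest relative to regular medium, with signals of 4911, 4935 and 2577, 1.91-fold lower. For Mcm5 the signals were 10375, 10540 and 5641, 1.84-fold lower. In both genes the co-culture array alone stood apart, as it also did for Mcm2 and Mcm3. Mcm6 gave 8177, 8900 and 5350 and Mcm3 gave 7338, 7352 and 4811, each 1.53-fold lower. Mcm2 was 1.43-fold lower, with 4223, 4179 and 2944. In contrast Mcm7 gave 9843, 10066 and 9347, and its 4 probe sets had log2 differences from -0.18 to -0.03. The ratio of Mcm4 to Mcm7 signal was therefore 1.81-fold lower in co-culture than in regular medium, a ratio that no constant factor applied to a whole array can alter. All 13 measured probe sets of Mcm2 to Mcm6 were lower, the least of them by 0.47 on the log2 scale (Mcm6) and the most by 1.28 (Mcm3).

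**Figure D4:**
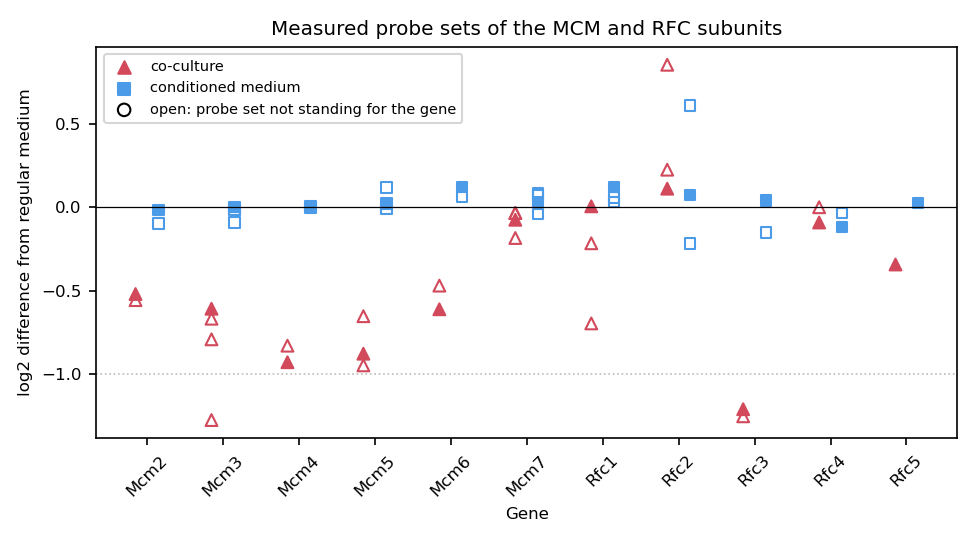
Log2 difference from regular medium for each measured probe set of the MCM and RFC subunits, in co-culture (red triangles) and conditioned medium (blue squares); filled points are the probe sets that stand for the gene. The 4 co-culture points of Mcm7 lie between -0.18 and -0.03, and both points of Rfc3 lie below -1.

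Genes that turn the loaded ring into an active helicase were lower in co-culture in 6 of 6 cases, 3 of them by at least 1.5-fold. Their median was -0.56. Cdc45, the subunit that joins the ring when origins fire, gave 1119, 1125 and 487 and was 2.30-fold lower. Its other probe set, at 133.1, 178.5 and 141.5, reached the limit of 149.3 only in conditioned medium and had a difference of 0.09. The GINS subunit genes Gins2, with 1226, 1268 and 713, and Gins1, with 1182, 1172 and 786, were 1.72-fold and 1.5-fold lower. Mcm10, which helps to activate the helicase, gave 1360, 1497 and 938, a difference of -0.54. A dimmer probe set of Mcm10, at 259.2, 309.7 and 73.5, had -1.82. Of the kinase pair, Cdc7 had -0.45, with -0.77 for its other measured probe set. Its partner Dbf4 gave 6371, 6606 and 5509, a difference of -0.21.

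The polymerases and primase had a median of -0.42, and 7 of 8 were lower in co-culture than in regular medium, 2 of them by at least 1.5-fold. Pole2, the second subunit of polymerase epsilon, gave 2122, 1805 and 1001 and was 2.12-fold lower, whereas the catalytic subunit gene Pole had a difference of -0.34. Pold1, the catalytic subunit of polymerase delta, gave 1757, 1756 and 1171, 1.5-fold lower, and its partner Pold2 had -0.26. Pola1, the catalytic subunit of polymerase alpha, gave 1905, 2026 and 1981, with no array standing apart. Its partner Pola2 gave 1545, 1980 and 1311, and was the member with the largest difference between conditioned and regular medium, at 0.36. The primase subunit Prim2 gave 722, 799 and 484, 1.49-fold lower, although a second probe set had -0.12, and Prim1 had -0.49.

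The sliding clamp and its loader had the widest range of the 7 roles by the probe sets that stand for the genes, with log2 differences from -1.21 (Rfc3) to 0.11 (Rfc2). Pcna, the clamp itself, gave 17294, 17301 and 9548, 1.81-fold lower. Of the 5 loader genes, Rfc3 gave 1990, 2047 and 859 and was 2.32-fold lower, with a second probe set at -1.25. Rfc5 had a difference of -0.34. Rfc2 gave 1648, 1736 and 1781 and Rfc4 gave 2186, 2015 and 2053, the latter with probe sets at -0.09 and 0.00. The other measured probe sets of Rfc2, both dimmer, were higher in co-culture, at 0.23 and 0.86. Rfc1, the large subunit, gave 1890, 2058 and 1898, but its 3 probe sets ranged from -0.70 to 0.01. The ratio of Rfc3 to Rfc4 signal was 2.18-fold lower in co-culture than in regular medium.

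Strand joining and single-strand binding genes were lower in co-culture in 5 of 5 cases, with a median of -0.52. Lig1, the ligase that seals lagging-strand fragments, gave 2680, 2821 and 1110 and was 2.41-fold lower, from 1 probe set. Fen1, the nuclease that trims their flaps, gave 3309, 3489 and 2313, a difference of -0.52. The trimer that coats single-stranded DNA was uneven. Rpa1, its large subunit, gave 8478, 8872 and 5029, 1.69-fold lower, while Rpa2 gave 1473, 1558 and 1263 and Rpa3 had a difference of -0.27. A second probe set of Rpa2 had -0.65, against -0.22 for the one that stands for the gene. In regular medium the second was slightly brighter, at 1546.2.

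Nucleotide supply had the lowest median of the 7 roles, at -0.87, with 6 of 6 genes lower in co-culture and 4 of them by at least 1.5-fold. Tk1, the S-phase thymidine kinase, gave 5392, 5786 and 2173 from 1 probe set and was 2.48-fold lower. This was the largest downward difference among the members by the probe sets that stand for the genes. Other probe sets of Rrm1, Mcm10 and Dck had larger ones. Rrm2, the small subunit of ribonucleotide reductase that limits its activity, gave 12234, 13134 and 6109, and its 3 probe sets had differences between -1.27 and -1.0. Its partner Rrm1, the large subunit, gave 5794, 6156 and 3232, 1.79-fold lower, and a second bright probe set had -1.54. Both reductase subunits were thus lower on every measured probe set. Dut, which removes dUTP, gave 4888, 4653 and 2620, 1.87-fold lower. Dck, the deoxycytidine kinase of the salvage pathway, gave 4108, 4371 and 3419, a difference of -0.26, while its other probe sets had -0.70 and -2.14. This gap of 1.87 on the log2 scale was the widest between probe sets of any member, so the size for Dck depends on the probe set. Tyms, the thymidylate synthase, was read from a dim probe set with 223.3, 257.0 and 165.0, a difference of -0.44. A further probe set, annotated to Tyms together with a pseudogene, fell outside the choice of probe sets and was not analysed here.

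Among the control and maintenance genes, E2f1, a transcription factor of this programme, gave 924, 900 and 781. Its measured probe sets had differences of -0.24 and 0.25, so no direction can be given. Uhrf1, which carries DNA methylation through replication, gave 3289, 3347 and 2116, 1.55-fold lower, with a second probe set at -1.27.

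Conditioned medium carries what MSCs release but allows no contact, and its comparison with regular medium shows how these genes stood without contact. No member differed by 1.5-fold in either direction, where 1.46% of 9152 measured genes were lower and 0.754% were higher by that much. The median log2 difference of the members was 0.04, with 12 of 45 lower against 46.3% of all measured genes, whose median was 0.01. Under other scalings of the arrays the count of 12 ran from 7 to 18. The members ranged from -0.23 for Pole2 to 0.36 for Pola2, and 42 of 45 lay within 0.2 of 0. Medians by role ran from -0.01 for control and maintenance to 0.10 for nucleotide supply. For 29 of 45 members the co-culture difference from regular medium was larger in size than 0.36. Differences of that size were also common among all measured genes, whose 19th percentile was -0.36 and whose 71.4th percentile was 0.36. The regular-medium array is shared by these comparisons, so neither is independent of the other.

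Against conditioned medium, the co-culture signals were lower for 43 of 45 members, where 44.0% of 9350 measured genes were lower. At least 1.5-fold lower were 25 members, against 9.95% of genes, and at least 2-fold lower were 7, against 2.60%. The median was -0.61. Orc1 took the place of Pole2 among the genes past 2-fold, at 2.04-fold and 1.80-fold, and the other 6 were past 2-fold against either medium. The exceptions were Rfc2 and Rfc4, with log2 differences of 0.04 and 0.03. Since the co-culture array enters both comparisons, the second adds no independent reading of it.

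Probe sets gave a further view of precision, though they share the RNA and the array and are not replicates. Over all 83 measured probe sets of the members, 75 were lower in co-culture than in regular medium and 44 were at least 1.5-fold lower. Their median was -0.61. Of 16899 measured named probe sets, 8264 were lower and 2519 at least 1.5-fold lower, with a median of 0.01. Of 29 members with at least 2 probe sets that reached 149.3 on any of the 3 arrays, 23 had all of these lower. The median gap between the highest and lowest probe set of a gene was 0.32 on the log2 scale, and 10 of the 29 had gaps above 1.5-fold. Differences between members of less than this gap, such as that between Mcm2 and Mcm3, lie within the spread of probe sets.

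Other genes of the same pathways were read from lists outside the 45. For co-culture against regular medium, 44.0% of all measured genes were lower, 9.86% by at least 1.5-fold and 2.76% by at least 2-fold. At least 2-fold higher were 5.81%. Of 30 measured other replication factors, 23 were lower in co-culture than in regular medium, 12 by at least 1.5-fold and 4 by at least 2-fold, and 1 was at least 2-fold higher, with a median of -0.37. Rnaseh2c and Rnaseh2b, subunits of the enzyme that removes ribonucleotides from DNA, were 3.0-fold and 2.06-fold lower, with Rnaseh2c at 2270, 2405 and 757. The nucleases Dna2 and Exo1 were 2.70-fold and 2.18-fold lower. Orc5, another origin recognition subunit, ran the other way, with 964, 994 and 2194, 2.28-fold higher in co-culture. Together with Orc1, Orc2 and Orc6 it left this complex without a common direction.

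Replication-coupled chromatin genes had 9 of 10 measured members lower, 4 by at least 1.5-fold and none by 2-fold, with a median of -0.44. Among all measured genes these shares were 44.0%, 9.86% and 2.76%. Among other genes of nucleotide metabolism 18 of 25 were lower, with a median of -0.20. At least 1.5-fold lower were 3 of the 25, a share near the 9.86% of all measured genes. Tk2, the mitochondrial thymidine kinase, was 2.07-fold higher in co-culture, with 309.8, 372.1 and 641.2, opposite to the S-phase enzyme Tk1. Of 22 G1/S control genes 16 were lower, 5 by at least 1.5-fold, against 44.0% and 9.86% of all measured genes. The cyclin Ccne2, which with its kinase starts S phase, gave 881.3, 928.0 and 316.3, 2.79-fold lower. Rb1, the retinoblastoma protein gene that restrains E2F factors, gave 341.1, 287.6 and 618.0, a difference of 0.86 from regular medium and 1.10 from conditioned medium. The other genes of its family in this list, Rbl1 and Rbl2, went the other way, at -0.08 and -0.58 from regular medium. Mitosis genes had the lowest median of the related lists, at -1.06, with 19 of 19 lower and 10 at least 2-fold lower. The spindle motor Kif11 was 4.0-fold lower and the mitotic kinase Plk1 2.71-fold lower. Next in size were Kif20a, Ttk, Ccnb2 and Tpx2, between 2.62-fold and 2.47-fold lower. The share past 2-fold was 2.76% among all measured genes. In conditioned medium none of these related lists had a member 1.5-fold from regular medium, and their medians ran from 0.00 to 0.05. Against conditioned medium, the co-culture signals of 10 mitosis genes, 4 other replication factors and Ccne2 were at least 2-fold lower, as were 2.60% of 9350 measured genes. The 4 factors were Rnaseh2c, Dna2, Exo1 and Clspn, the last at 2.03-fold, while Rnaseh2b was 1.97-fold lower. Rb1 and Orc5 were at least 2-fold higher against conditioned medium, as were 545 of the 9350 measured genes.

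The zero point of the comparison rests on the scaling of the arrays. The 11 named reference genes had a median log2 difference of -0.25 between co-culture and regular medium. When the arrays were centred on them, the median of all measured genes moved from 0.07 to 0.21, that of the members from -0.58 to -0.44, and 40 of 45 members were lower. Rfc4 then had a difference of 0.05 in place of -0.09. Centring on the median of measured genes moved the median of all genes to -0.06 and that of the members to -0.70, with 45 of 45 lower. Quantile normalization, which does not shift a whole array by a constant, gave medians of 0.06 for all genes and -0.58 for the members, with 42 of 45 lower.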

How the data were processed

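RNA from 4T1 cells was hybridised to 3 Affymetrix Mouse Genome 430 2.0 arrays, 1 for each group, and groups were taken from the labels. The deposited values are linear intensity values from MAS5, per the submitters' processing notes; its version is not given in the sources used here, nor is a scaling target. The method combines the probes of a set into 1 signal and is usually run with a scaling of each array, which can move all differences together. Of 45037 probe sets, 34945 had 1 gene symbol, 932 several and 9160 none. For 34741 the symbol was brought up to date by gene ID. The members, gene lists, promoter words and alternatives were chosen with earlier results of these data known. Signals under the floor of 42.4 were raised to it before log2 was taken, and fold limits of 1.5 and 2 were applied to measured genes. No test was possible with 1 array a group, which also limits precision. Signals on all arrays were given for members 1.5-fold apart in any comparison, the nearest and farthest from 0 in each role, and those with probe sets of opposite direction by over 1.5-fold. The planned protein comparison was not run, for lack of a protein table. The calculation was tested on simulated data. Alternatives covered scaling, floor, signal filter and choice of probe set. Python 3.11.15, NumPy 2.4.6 and pandas 2.3.3 were used.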

Additional observations from a re-analysis of the deposited data

How the results depend on the processing

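Each of 9 results, namely the members at least 2-fold lower, those at least 1.5-fold lower and the median log2 difference in each of the 3 comparisons, was recomputed under 13 alternatives. The counts at 1.5-fold stayed within 1.5 times of the reported ones under all 13, at 17 to 27 for co-culture against regular medium, 20 to 28 against conditioned medium and 0 for conditioned medium against regular medium. A median was taken as moved when it changed by more than 0.1. Centring on the median of measured genes gave 12 members at least 2-fold lower in co-culture, against regular and against conditioned medium alike, in place of 7 in each, with medians of -0.70 and -0.72. Centring on the reference genes gave 4 members at least 2-fold lower against regular medium, with a median of -0.44. These shifts follow from the centring itself, which moves all genes of an array together. For co-culture against regular medium, the other 11 alternatives kept the 2-fold count within 1.5 times of 7 and the median within 0.1 of -0.58. The conditioned-medium median lay between 0.00 and 0.09 in all 13. With 1 array for each condition there is no replicate to leave out, and spread between cultures is unknown. Dim signals limit probe sets such as those of Tyms and the second ones of Cdc45, Mcm10 and Dut.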
